A study of Homo sapiens with 9 samples.

Results

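The SWI/SNF (BAF) complexes are chromatin remodellers, and this account follows the mRNAs of 10 of their subunits in 2 human cell lines. The 10 genes were a fixed list of symbols (SMARCA4, SMARCA2, SMARCB1, SMARCC1, SMARCC2, SMARCD1, SMARCE1, ARID1A, ARID2 and PBRM1). All 10 were found among the 26625 genes of the count tables. The libraries came from total RNA of wild-type cells, reverse transcribed from oligo(dT) primers in a protocol named CLT-seq. HEK293T, a transformed embryonic kidney line, had 1 library with gene counts for each of 6 primers. T12, T18 and T30 are runs of 12, 18 and 30 T, and T18V, T18VN and T18VNN add an anchor of 1, 2 or 3 bases to 18 T. A549, a lung carcinoma line, had 1 library with gene counts, made with T12. By the labels, HEK293T grew in high-glucose DMEM and A549 in F-12K, each with serum, so medium and line cannot be told apart. A549 is known to carry an inactivating mutation of SMARCA4, and it is the only A549 group.

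SWI/SNF complexes use the energy of ATP to slide or eject nucleosomes, which opens promoters and enhancers to transcription factors. Each complex has 1 ATPase, either SMARCA4 (BRG1) or its paralogue SMARCA2 (BRM). The canonical BAF and PBAF forms are built on a core of SMARCC1 or SMARCC2 scaffolds with SMARCD, SMARCE1 and SMARCB1. Canonical BAF contains ARID1A or its paralogue ARID1B, while the PBAF form contains ARID2 and PBRM1. Several subunits are tumour suppressors, and cells that lose SMARCA4 are known to depend on SMARCA2.

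An oligo(dT) primer can anneal to a run of A inside a transcript as well as to the poly(A) tail, so the runs of at least 10 A in the subunits' transcripts are shown first. Each gene was matched to 1 GENCODE release 29 transcript (GRCh38) through its RefSeq accession. Such a run was present in 5 of the 10 transcripts. Among the longest protein-coding transcript of each gene, 18.6% held one, and 20.7% of those between 1730 and 8642 nt did. The subunits' transcripts were instead picked for a length near that of the deposited entry, so the shares rest on unlike choices. The sites read 5′ to 3′ on the transcript strand, with the A run in capitals and 6 flanking bases on each side.

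ARID1A, 3′ UTR, 933 nt before the transcript end: aatggtAAAAAAAAAAAAAAAAAAtacaaa

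ARID1A, 3′ UTR, 639 nt before the end: gaggagAAAAAAAAAAAAggcttt

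SMARCC2, 3′ UTR, 345 nt before the end: tggattAAAAAAAAAAAAAAAAAgtagat

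SMARCC1, 3′ UTR, 1960 nt before the end: taaaagAAAAAAAAAAgtagat

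ARID2, 3′ UTR, 2745 nt before the end: aaaaggAAAAAAAAAAAAgaactg

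SMARCE1, 5′ UTR, 5215 nt before the end: gcccggAAAAAAAAAAAAAttaaga

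SMARCE1, 3′ UTR, 2757 nt before the end: tgtaatAAAAAAAAAAAtgaaaa

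The longest run was 18 A, in ARID1A, followed by 17 A in SMARCC2, 13 A in SMARCE1, 12 A in ARID2 and 10 A in SMARCC1. In SMARCA4, SMARCA2, SMARCB1, SMARCD1 and PBRM1 the longest run was 5, 8, 4, 5 and 7 A. For PBRM1 the transcript searched has 5071 nt and the deposited entry 7574 nt, so a part of what was counted was not searched. The same holds for SMARCC2, with 4271 nt searched and 4902 nt in the matched deposited entry. For SMARCC1 (6375 and 5757 nt) and SMARCE1 (6196 and 2425 nt) the transcript is the longer, so a run may lie outside what was counted. The distances given are to the end of the GENCODE transcript. A run is a match of letters, and priming from it was not measured.

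The smallest total of gene reads was 1498171 (A549) and the largest 5200799 (HEK293T T18). Levels are given as CPM, the reads of a gene scaled to the same total of gene reads in every library. These reads were 11.7% to 37.5% of the HEK293T library totals and 13.5% of the A549 total. The marker lists of the lines were chosen with earlier results of these data known, so they describe the lines and do not test their identity. All 10 A549 markers were at least 2-fold higher in A549, and 5 of them had 0 reads in every HEK293T library. Of 8 HEK293T markers, 7 were at least 2-fold lower in A549 and 4 had 0 reads there, among them CDKN2A; the summed level of the 8 was 117 CPM in A549 and 4147 to 5647 CPM in HEK293T. The HEK293T T18VNN library stood apart in coverage, with 33.7% of it in the first 20 percentiles of the transcript body against 2.61% to 3.16% in 4 other HEK293T libraries. In bulk libraries such as these, fewer cells with a transcript and less of it per cell cannot be told apart.

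The comparison of A549 with HEK293T under the same T12 primer showed a pronounced difference in the ATPases. SMARCA4, the ATPase BRG1, lies on chromosome 19 (11071598 to 11172958, plus strand, hg19). It had 3 reads in A549, or 2.00 CPM (95% exact Poisson interval 0.413 to 5.85). Its HEK293T reads were 318 with T12 (97.4 CPM), 533 with T18 (102 CPM), 250 with T30 (113 CPM), 369 with T18V (131 CPM), 465 with T18VN (104 CPM) and 539 with T18VNN (149.9 CPM). All 6 HEK293T libraries lay far above A549, and the lowest of them was 48.6 times the A549 level. At the HEK293T T12 level, 146 reads would fall on SMARCA4 in a library of the A549 depth. The T12 ratio of HEK293T to A549 was 48.6, with an exact binomial interval of 16.5 to 237 for counting error. All 7 deposited SMARCA4 transcript entries held the same reads, so the low value did not depend on the entry kept.

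SMARCA2, the alternative ATPase BRM, went the other way. It lies on chromosome 9 (2015219 to 2193624, plus strand) and had 72 reads in A549, 48.1 CPM (37.6 to 60.5). In HEK293T it had 24.8, 25, 21.7, 22.8, 23.2 and 26.1 CPM with T12, T18, T30, T18V, T18VN and T18VNN. On the CPM scale the A549 value lay above all 6, and the T12 ratio of A549 to HEK293T was 1.94 (1.39 to 2.695), just short of the 2-fold threshold. No HEK293T value differed from another by more than 1.21-fold on the CPM scale, the narrowest range of the 10 subunits on that scale. With the deposited FPM, scaled to the library total, its range was 3.38-fold and that of SMARCE1, at 2.30-fold, was the narrowest. The log2 ratio of A549 to T12 for SMARCA2 was 0.93 on CPM + 1, 0.66 with TMM scaling and 0.50 with FPM. By FPM the A549 level of SMARCA2 (72 of 11127940 library reads) lay inside the HEK293T range. It was below T18V (64 of 7491993), T18VN (104 of 15955229) and T18VNN (94 of 12963360), and above T12, T18 and T30.

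As a share of the reads of both ATPases, SMARCA4 made up 4% in A549 (95% exact binomial interval 0.833 to 11.2). In the HEK293T libraries the share ran from 79.7% with T12 (75.4 to 83.5) to 85.2% with T18V (81.5 to 88.4). Per kb of transcript, SMARCA4 was 3.90 to 5.72 times the level of SMARCA2 in HEK293T, while SMARCA2 was 24.2 times the level of SMARCA4 in A549. The latter rests on 3 SMARCA4 reads: as SMARCA4 to SMARCA2 the A549 ratio was 0.0414 (0.00833 to 0.126). The ATPase pair was therefore reversed in order between the lines, in 1 A549 library against 6 of HEK293T. The transcripts could be told apart by sequence: 0.923% of the 50-base windows of SMARCA4 and 0.155% of those of SMARCA2 also occurred in another gene, in neither case the paralogue. Within SMARCA2, short entries also held 68 of the 72 A549 reads, so short and full-length transcripts could not be told apart for these.

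**Figure D1:**
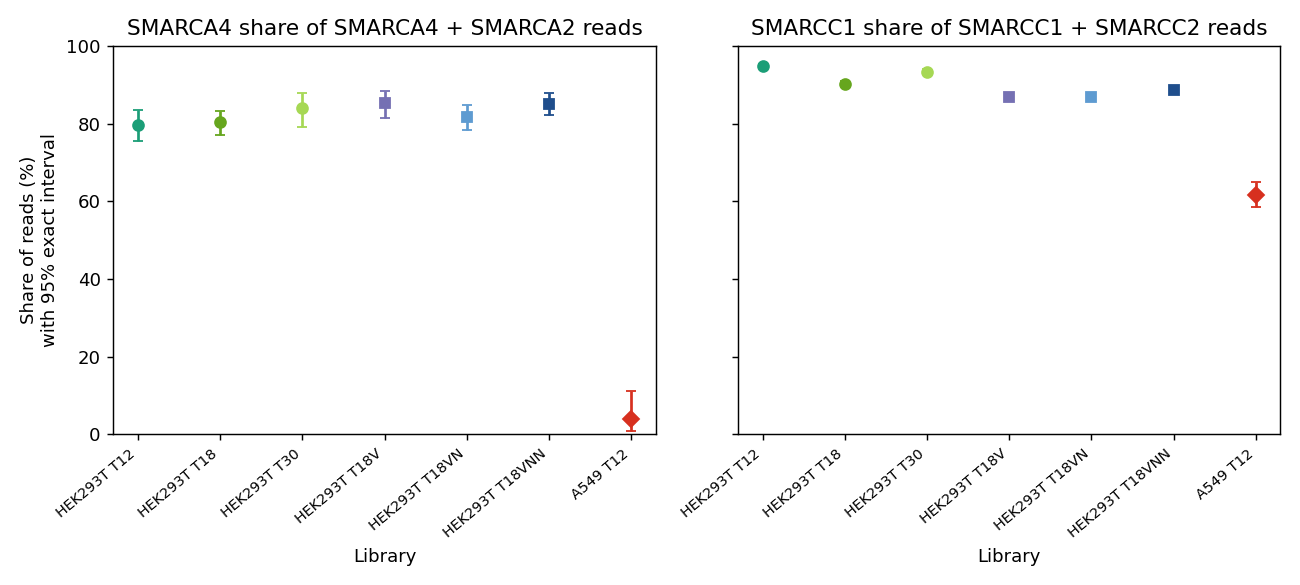
Share of SMARCA4 in the summed reads of SMARCA4 and SMARCA2 (left) and of SMARCC1 in those of SMARCC1 and SMARCC2 (right), in percent, for each library; bars are 95% exact binomial intervals for counting error. SMARCA4 holds 4% in A549 against 79.7% to 85.2% in HEK293T, and SMARCC1 holds 61.7% against 86.8% to 94.9%.

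Among the core subunits SMARCB1 and SMARCC1 were at least 2-fold lower in A549 than in any HEK293T library, while SMARCC2, SMARCD1 and SMARCE1 differed less. SMARCB1 (SNF5 or INI1), a core subunit lost in rhabdoid tumours, lies on chromosome 22 (24129118 to 24176705, plus strand). It had 11 reads in A549, 7.34 CPM (3.67 to 13.1), and in HEK293T 83.9 CPM (T12), 71.3 (T18), 37.5 (T30), 119 (T18V), 96.2 (T18VN) and 47.8 (T18VNN). The A549 value lay below all 6, and the T12 ratio of HEK293T to A549 was 11.4 (6.29 to 23.2). The entry overlaps DERL3, and how reads of overlapping genes were assigned is not given in the sources used here, so its value is uncertain to that extent.

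SMARCC1 (BAF155), a scaffold around which the complex assembles, was the most abundant of the 10 in every HEK293T library. It lies on chromosome 3 (47627378 to 47823405, minus strand) and had 534 reads in A549, 356 CPM (327 to 388). Its HEK293T levels were 1820 CPM (T12), 1781 (T18), 2713 (T30), 2321 (T18V), 1374 (T18VN) and 2141 (T18VNN), all above A549. The T12 ratio of HEK293T to A549 was 5.11 (4.67 to 5.59). SMARCC1 alone made up 53.1% to 73.8% of the summed CPM of the 10 genes in HEK293T and 28% in A549.

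SMARCC2 (BAF170), the paralogous scaffold, is on chromosome 12 (56556143 to 56583358, minus strand). Its A549 level of 221 CPM was 2.26 times (1.93 to 2.65) the 97.7 CPM of HEK293T T12. The other HEK293T levels were 192 CPM (T18), 191 (T30), 352 (T18V), 209 (T18VN) and 272 (T18VNN). The A549 value thus lay inside the HEK293T range, and the 2-fold call held against the T12 library but not against the median of the 6 (200.3 CPM), which A549 exceeded by 0.14 on the log2 scale. Per kb, SMARCC1 was 5.93 to 16.8 times the level of SMARCC2 in HEK293T and 1.45 times in A549 (1.26 to 1.67).

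SMARCD1 (BAF60A), which links the complex to transcription factors, is on chromosome 12 (50478983 to 50494494, plus strand). Its A549 level was 66.1 CPM, against 129 CPM in HEK293T T12 and 84.8 to 115 CPM in the other 5 HEK293T libraries. The A549 value lay below all 6, at 1.95-fold lower than T12 (1.56 to 2.45). SMARCE1 (BAF57), an HMG-box subunit on chromosome 17 (38783972 to 38804103, minus strand), had 28 reads in A549 (18.7 CPM) and 9 to 31 reads in the HEK293T libraries (3.20 to 9.49 CPM). A549 was 1.97 times T12 (1.14 to 3.39), above all 6. Its values are uncertain: 60.2% of the 50-base windows of its transcript also occurred in transcripts of 15 other genes, SMARCE1 pseudogenes among them. In addition, the deposited entry has 2425 nt where the GENCODE transcript has 6196 nt. The part of either fact in the low counts was not tested.

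The subunits that define canonical BAF and PBAF differed less. ARID1A, the DNA-binding subunit of canonical BAF, is on chromosome 1 (27022522 to 27108601, plus strand). Its A549 level of 499.9 CPM was 1.51 times (1.37 to 1.66) the 331 CPM of HEK293T T12. The other HEK293T levels were 889 CPM (T18), 444 (T30), 292 (T18V), 603 (T18VN) and 700.1 (T18VNN), so A549 lay within their range. ARID2, its counterpart in PBAF on chromosome 12 (46123492 to 46301823, plus strand), had 22 CPM in A549, within the 10.3 to 26.2 CPM of HEK293T. The interval of its T12 ratio (1.16, 0.737 to 1.80) included 1. PBRM1 (BAF180), the bromodomain subunit of PBAF on chromosome 3 (52579368 to 52719866, minus strand), had 30 CPM in A549, against 42.9 CPM in HEK293T T12. On the CPM scale it lay just below the lowest HEK293T library (31.1 CPM, T30), and its T12 ratio was 0.701 (0.489 to 0.987). By FPM it was above T30 (45 of 11127940 library reads, against 69 of 18972506).

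**Figure D2:**
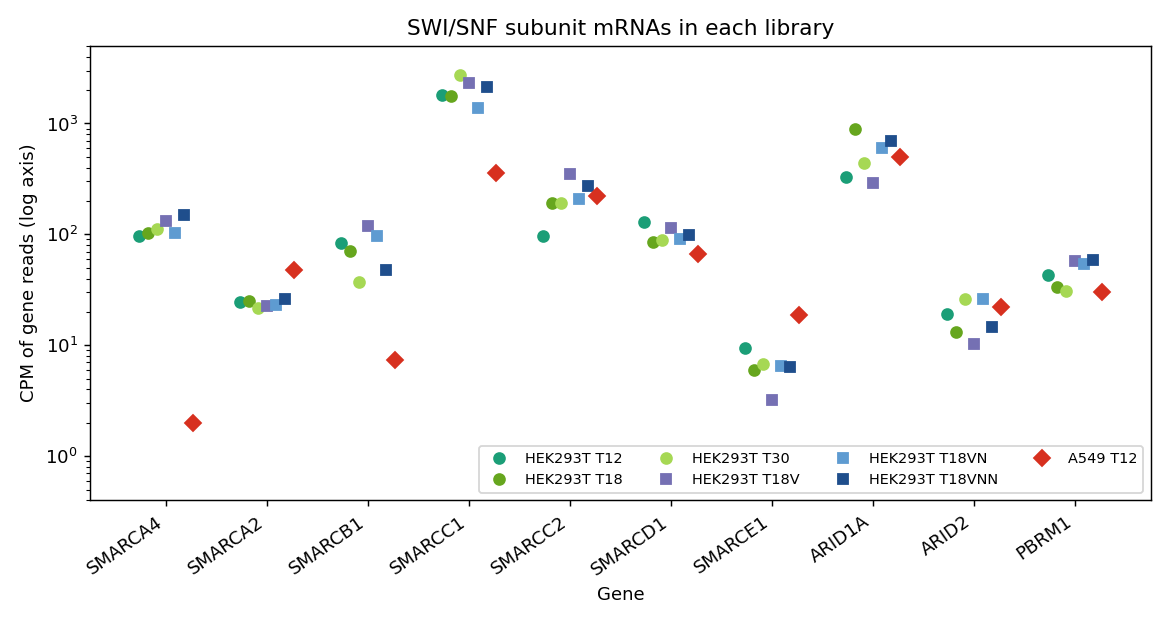
CPM of each subunit mRNA on a log axis in the 6 HEK293T libraries (circles unanchored, squares anchored primers) and the A549 T12 library (diamonds). SMARCA4, SMARCB1, SMARCC1, SMARCD1 and, narrowly, PBRM1 lie below all HEK293T points in A549, and SMARCA2 and SMARCE1 above them.

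In all, 4 of the 10 subunits differed by a log2 ratio of CPM + 1 of at least 1 in size, the 2-fold threshold, among genes with 20 or more reads in either T12 library. SMARCA4 (-5.03), SMARCB1 (-3.35) and SMARCC1 (-2.35) were lower in A549 and SMARCC2 (1.17) was higher. Among all 10144 genes that met the read minimum, 60.2% differed 2-fold, 29.2% lower and 31% higher, so the share of subunits called was not above the background. The 3 lower subunits also lay outside the HEK293T range, as 48.6% of all genes did at 2-fold. Without a fold threshold 7 of 10 subunits lay outside that range, against 62.5% of genes. Both values are on the CPM scale. By FPM SMARCA2 and PBRM1 lay inside the range, and the share of all genes was not computed on that scale. The median log2 ratio was -0.15 over the 10 and 0.02 over all genes. TMM scaling moved the median of all genes to -0.24, and with it 4 subunits were lower and 0 higher, since SMARCD1 reached -1.22 and SMARCC2 was under the threshold at 0.90. There was 1 library per line, so these differences have no replicate check.

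**Figure D3:**
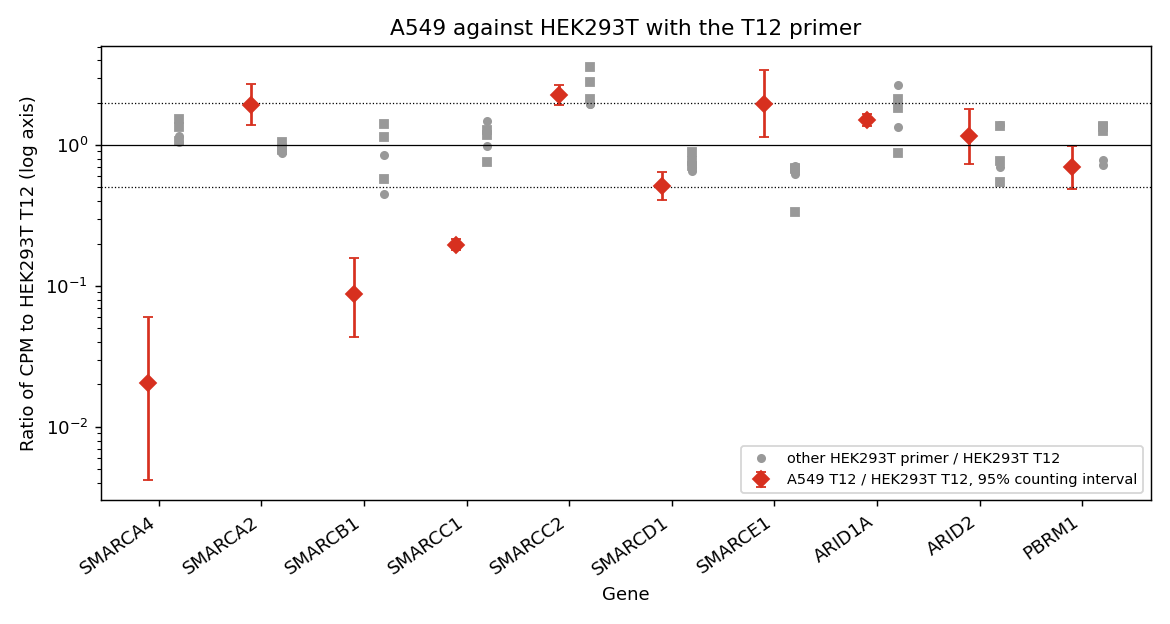
Ratio of CPM in A549 T12 to HEK293T T12 for each subunit (red diamonds, 95% exact intervals for counting error) on a log axis, with the other 5 HEK293T primers against HEK293T T12 in grey; dotted lines mark 2-fold. SMARCA4, SMARCB1 and SMARCC1 lie below 0.2 and apart from the grey points, while SMARCC2 lies among them.

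Ordered per kb, SMARCC1 led in HEK293T T12 (316 CPM per kb), followed by SMARCB1 (49.1), ARID1A (41.7), SMARCD1 (38.9), SMARCC2 (18.9), SMARCA4 (17.1), PBRM1 (5.66), SMARCA2 (4.39), SMARCE1 (3.91) and ARID2 (2.21). In A549 ARID1A (63 CPM per kb) and SMARCC1 (61.9) stood together at the top, ahead of SMARCC2 (42.6), SMARCD1 (20), SMARCA2 (8.50), SMARCE1 (7.71), SMARCB1 (4.30), PBRM1 (3.97), ARID2 (2.56) and SMARCA4 (0.352). The ATPases thus stood in the opposite order. SMARCB1 was at rank 7 in A549 and at rank 2 in HEK293T T12 and T18V, 3 in T18 and T18VN, and 5 in T30 and T18VNN. Division by length can shift the order between genes, since 64.7% of the HEK293T T12 coverage lay in the last 20 percentiles. By CPM in that library SMARCB1 (83.9) stood below ARID1A (331), SMARCD1 (129), SMARCC2 (97.7) and SMARCA4 (97.4). Neighbours such as ARID1A and SMARCC1 in A549, or SMARCB1 and PBRM1 there, were not separated beyond the range that the primers gave in HEK293T.

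Within HEK293T the highest and the lowest library differed by a median of 2.26-fold over the subunits, against 2.88-fold over 6832 genes with a mean of at least 50 reads and none at 0. SMARCA2 (1.21-fold), SMARCD1 (1.52), SMARCA4 (1.54), PBRM1 (1.89) and SMARCC1 (1.97) had the narrow ranges. ARID2 (2.54), SMARCE1 (2.96), ARID1A (3.04), SMARCB1 (3.18) and SMARCC2 (3.60) had the wide ones. The range of SMARCC2 rested on its low T12 value and was 1.84-fold without that library, and that of SMARCE1 on 9 reads in T18V and was 1.59-fold without it. Without T18VNN the range of SMARCA4 was 1.35-fold.

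The 5 subunits whose transcripts hold the A runs printed above ranged from 1.97-fold to 3.60-fold with a median of 2.96, and the 5 without such a run from 1.21-fold to 3.18-fold with a median of 1.54. SMARCB1, with no run over 4 A, had the second widest range, so the sets overlapped. PBRM1 was placed in the set without a run, although a part of its deposited entry was not searched. The median of 2.96 is the range of SMARCE1, which rests on its 9 reads in T18V: without that library the medians were 1.97 with a run and 1.54 without. This split was chosen after the values were seen and was not tested.

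Against the HEK293T T12 library, 1 subunit differed 2-fold with T18 (ARID1A higher), where 29.2% of genes did, and 1 with T30 (SMARCB1 lower), where 36.9% did. With T18V 2 differed (SMARCC2 higher, SMARCE1 lower; 40% of genes), with T18VN 1 (SMARCC2 higher; 36.9%) and with T18VNN 2 (SMARCC2 and ARID1A higher; 39.1%). SMARCA4, SMARCA2, SMARCC1, SMARCD1, ARID2 and PBRM1 did not reach 2-fold with any of these primers. These 5 comparisons share the T12 library.

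The anchored primers (T18V, T18VN and T18VNN) were compared with the unanchored ones (T12, T18 and T30) by edgeR's quasi-likelihood test, with 1 library per primer, so that the spread is between primers and not between cultures. None of the 10 subunits had an adjusted p under 0.05 in edgeR, where 1.35% of 10887 tested genes did; 0 had an unadjusted p under 0.05, as 15.6% of the tested genes did. DESeq2 called 0 of the 10 and 583 of 12373 genes. The fit scales libraries by TMM, so a small log2 difference can differ in sign from that of the CPM means. SMARCC2 had 160.3 ± 54.2 CPM without and 277 ± 71.8 CPM with an anchor (SD, n = 3 each), and edgeR gave a log2 difference of 0.61 (SE 0.36) with an adjusted p of 0.454. PBRM1 stood at 35.9 ± 6.18 CPM without and 56.8 ± 2.68 CPM with an anchor (SD, n = 3 each), and edgeR gave a log2 difference of 0.49 (SE 0.33) with an adjusted p of 0.517. In these 2 subunits all anchored libraries lay above all unanchored ones, as 23.6% of tested genes were separated in either direction.

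The ATPases did not separate by primer class. SMARCA4 had 104 ± 7.87 CPM without and 128 ± 23.2 CPM with an anchor (SD, n = 3 each), with an edgeR log2 difference of 0.13 (SE 0.30) and an adjusted p of 0.895. SMARCA2 stood at 23.8 ± 1.87 and 24 ± 1.83 CPM, with an edgeR log2 difference of the opposite sign, -0.16 (SE 0.39) and an adjusted p of 0.896. The remaining 6 subunits had log2 fold changes from -0.62 (SMARCE1, SE 0.69) to 0.29 (SMARCB1, SE 0.42), each smaller than its standard error. The standard errors leave room for differences in either direction, and the primers cannot be said to act alike on these genes.

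**Figure D4:**
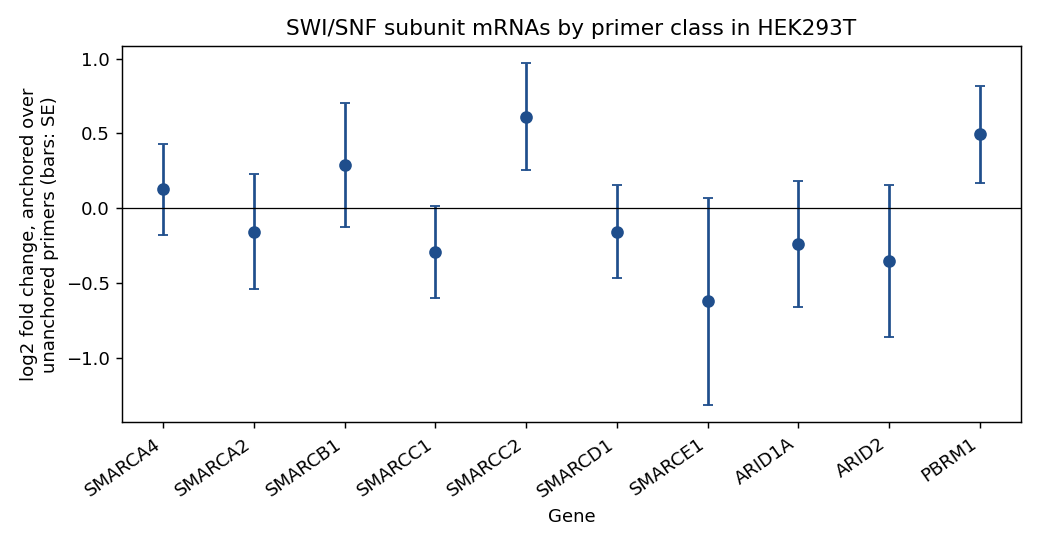
log2 fold change of anchored over unanchored primers for each subunit in HEK293T from edgeR, with standard errors as bars. SMARCC2 (0.61) and PBRM1 (0.49) lie highest, and no subunit passed the adjusted threshold.

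The deposited transcript entries of a gene show where its reads lay. All 2477 SMARCA4 reads over the 7 libraries were counted in each of 7 entries, and the same held for the entries of SMARCB1, SMARCC2, SMARCD1 and ARID1A. For SMARCA2, 3 short entries that start at 2157680 or later on chromosome 9 held 572 reads, 96.5% of the 593 in the full-length entries. In A549 these were 68 of 72 reads, so the A549 SMARCA2 reads lay in the 3′ part that the short and full-length entries share. ARID2 differed: an entry with an earlier end held 34 reads, 8.08% as many as the 421 of the entry kept. It had 13 reads in T18V against 29 in the entry kept, 10 against 69 in T18, and 0 in HEK293T T12 and T18VN. In A549 it had 4 reads against 33.

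Other chromatin remodellers were described for comparison. Among 20 further BAF subunits, 12 met the read minimum, and at 2-fold 2 of them were higher and 2 lower in A549 (median log2 ratio -0.36). DPF1, a PHD-finger subunit of neuronal BAF, had 1 read in A549 against 239 in HEK293T T12, a ratio of 110 (interval 19.5 to 4349). BICRA, a subunit of the non-canonical form, had 40.7 CPM in A549 against 3.67 to 22.2 CPM in HEK293T, 11.1 times T12 (5.91 to 22.6). BCL7A, another accessory subunit, was at 18 CPM in A549, below the 24.2 to 127 CPM of HEK293T, though 1.34-fold lower than T12.

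Of the 14 ISWI genes 2 were higher and 3 lower (median 0.28). CECR2 had no read in A549 (0, against 64 in HEK293T T12) and was at least 9.79-fold lower against a floor of 3 reads in the A549 library, a bound that leaves out the counting error of HEK293T. The exact 95% lower limit of the ratio, which includes it, was 7.73. BAZ1B was 2.39-fold lower (2.19 to 2.60) and BAZ2A, which overlaps RBMS2, 4.4 times higher (3.20 to 6.09). Among the HEK293T libraries T12 gave the lowest BAZ2A level (18.4 to 63.1 CPM, against 80.8 in A549). Of 20 NuRD and CHD genes tested, 5 were higher and 4 lower (median -0.20). The deacetylase HDAC1 was 6.28-fold lower (5.50 to 7.21) and MTA2 2.47-fold lower (2.12 to 2.89). The remodellers CHD8, which overlaps snoRNA genes, and CHD9 were 5.45 (3.66 to 8.26) and 5.25 times higher (4.0 to 6.95) than HEK293T T12. For both genes T12 gave the lowest HEK293T level. The highest HEK293T levels were 43.9 CPM for CHD8 (T18VNN) and 96.1 CPM for CHD9 (T18V), against 60.1 and 122 CPM in A549.

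Of 19 INO80 and SRCAP genes tested, 2 were higher and 7 lower (median -0.53). ACTR5, an INO80 subunit, was 22.1-fold lower (10.0 to 60.7), and NFRKB, with 0 reads in A549 against 56 in HEK293T T12, was at least 8.56-fold lower against the same floor, with an exact lower limit of 6.74. YY1 and INO80B lay above the HEK293T range but differed from T12 by 1.22 and 1.24 times, and both overlap another gene. Of 11 PRC2 genes, whose Polycomb complex opposes SWI/SNF, 1 was higher and 3 lower (median -0.28). MTF2 was 2.55-fold lower (1.73 to 3.86) and JARID2, which overlaps an antisense gene, 1.73-fold lower (1.47 to 2.06). RBBP4 and RBBP7 are in 3 of these lists. Over the 72 distinct related genes tested, 43.1% differed 2-fold, against 40% of the 10 subunits and the 60.2% given above for all genes. With anchored against unanchored primers, 0 of 79 related genes tested had an adjusted p under 0.05 in edgeR.

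**Figure D5:**
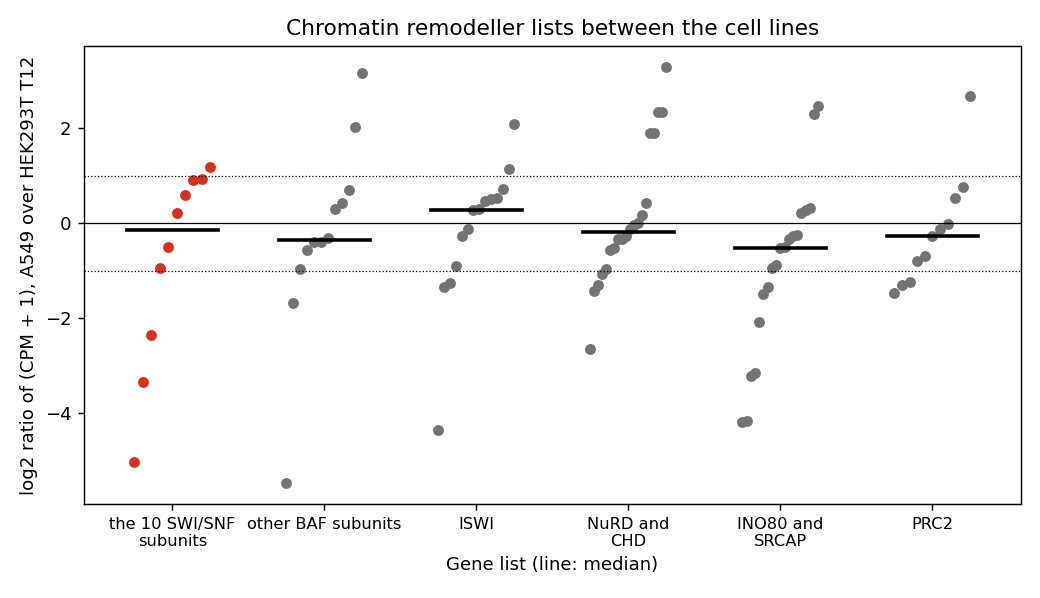
log2 ratio of (CPM + 1) in A549 over HEK293T T12 for the 10 SWI/SNF subunits (red) and for 5 lists of other remodeller genes (grey) that met the read minimum; thick lines are medians and dotted lines mark 2-fold. The medians run from -0.53 (INO80 and SRCAP) to 0.28 (ISWI), and each list has genes on either side of 0.

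Among 6791 genes with a mean of at least 50 reads, those whose log2(CPM + 1) over the 7 libraries was most like SMARCA4 were ARID3B (Pearson r 0.998), SMPD4 (0.998) and NID1 (0.997). ARID3B had 12.7 CPM in A549 and 155 to 215 CPM in HEK293T. SMPD4 had 6.67 CPM and 2005 to 3693 CPM, and NID1 5.34 CPM and 56.1 to 75.1 CPM. Most like SMARCA2 were CD44 (0.989), C1R (0.988) and PTBP3 (0.988). In A549 they had 696, 348 and 499 CPM, and in HEK293T at most 2.78, 3.34 and 45.9 CPM. CD44 and C1R met the read minimum only through A549, so their likeness is the A549 gap itself. For ARID3B, SMPD4, NID1 and PTBP3 that gap also leads: over the 6 HEK293T libraries alone their r was 0.739 to 0.847.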

How the data were processed

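Gene counts were used for 7 of the 9 libraries; the other 2 had poly(T) lengths only and were not used. The authors deposited read counts per RefSeq transcript, with FPM (a signal scaled to the library total) and FPKM, per the file headers. Cutadapt 2.10, Trimmomatic 0.39 and HISAT2 2.2.1 with the builds GRCh37 and hg19 are named in the submitters' processing notes. Strand use and counting settings are not given in the sources used here. Gene body coverage, a deposited signal, was read for 5 HEK293T libraries.

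Accessions were matched to RefSeq symbols (60133 of 61177 entries, 98.3%). Per gene the entry with most reads over the 7 tables was kept, the first listed where entries tied. CPM used the kept reads, and 3 reads were the floor, 0.577 to 2.00 CPM. Intervals are 95% and exact and cover counting error only. Anchored and unanchored primers were compared with edgeR 4.0.16 in R 4.3.3 (filterByExpr, TMM, quasi-likelihood F-test, Benjamini-Hochberg over all genes). The standard error is the log2 fold change divided by the square root of F. DESeq2 1.42.0, other scalings, pseudocounts, filters, entries and left-out libraries were alternatives. The edgeR script was tested on simulated data. Levels between genes are CPM per kb of the kept entry.

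The members and lists were chosen with earlier results of these data known. Named related genes were, per list, up to 2 of the highest and 2 of the lowest log2 ratios among genes with 50 or more reads in either T12 library whose A549 value lay outside the HEK293T range. Genes most like SMARCA4 and SMARCA2 were the 3 highest correlations for each.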

Additional observations from a re-analysis of the deposited data

How the results depend on the processing

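The calls of SMARCA4, SMARCB1 and SMARCC1 as lower in A549 held under all 8 alternatives. The count of subunits higher in A549 was 0 with TMM scaling and 0 with FPM in place of 1, since SMARCC2 was at 0.90 and 0.78. Against the median of the 6 HEK293T libraries SMARCC2 was at 0.14 and SMARCE1 at 1.41. The cause of these changes was not tested, beyond the shift in scale given above. With a minimum of 100 reads 15 related genes were called in place of 31, as fewer genes were tested. No subunit was called between primer classes under any alternative. Over all genes the 147 calls became 556 without the filter, 583 with DESeq2 and 46 to 111 with 1 library left out; the cause was not tested. The median primer range was 3.74-fold with FPM, which does not correct for the share of a library on genes, and single ranges ran from 2.30 (SMARCE1) to 10.2 (SMARCB1). In 12 sets of 6 HEK293T values (10 levels and 2 paralogue ratios) 0 had a library beyond Dixon's critical value. SMARCE1, at 9 to 31 reads, and SMARCA4 in A549, at 3, are limited by depth. No paired analysis was possible because the HEK293T library with gene counts is replicate 1 and the A549 one replicate 2, and each other primer has 1 library.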
